A study of Homo sapiens with 12 samples.

Results

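Claudins are the membrane proteins that form the strands of tight junctions. The 10 claudin genes CLDN1, CLDN2, CLDN3, CLDN4, CLDN7, CLDN10, CLDN11, CLDN12, CLDN16 and CLDN23 were followed through cells labelled SCC-15, a long-established line from a squamous cell carcinoma of the mouth. They were taken by symbol from a table of 61044 gene IDs and were chosen by their measured levels: CLDN1 reads were nearly absent from the FMOD hairpin libraries, and the family was followed to ask whether other claudins shared this loss. Of the 10 genes, 7 passed the filter on low counts (CLDN1, CLDN3, CLDN4, CLDN7, CLDN12, CLDN16 and CLDN23), among 17532 genes that passed it. CLDN2, CLDN10 and CLDN11 did not pass and were described mainly by their counts. The table held 14 further claudin genes, of which CLDN9 and CLDN15 passed.

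The labels give SCC-15 cells with a short hairpin RNA for all 12 libraries. They name the control hairpin shRNA-NC (here NC) and the 3 hairpins against FMOD, the gene of the matrix proteoglycan fibromodulin, shRNA1-FMOD, shRNA2-FMOD and shRNA3-FMOD (here shRNA1, shRNA2 and shRNA3). Each of the 4 groups had 3 libraries, and cells were harvested at 48 hours. No untreated cells were among the samples. How the hairpins were delivered, and whether a group was a pool of cells or a clone, is not given in the labels, nor is whether libraries of a group came from separate cultures, so p-values measure only the spread between these libraries.

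Tight junctions seal the space between neighbouring epithelial cells near their apical side. The extracellular loops of a claudin pair with claudins of the next cell to form either a barrier or a channel for ions, depending on which claudins are present. Stratified squamous epithelium, the tissue from which oral carcinomas arise, is known for CLDN1 and CLDN4, and CLDN1 is required for the barrier of the skin. Inside the cell most claudins end in a motif that binds scaffold proteins of the junction plaque.

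CLDN1 (ENSG00000163347) lies on the minus strand of chromosome 3 at 190305701 to 190322475 (GRCh38, GENCODE release 29). CLDN16 (ENSG00000113946) runs the other way on the plus strand, from 190322541 to 190412143, so that 65 bases separate the outermost starts of the 2 genes in this annotation. That start of CLDN16 belongs to CLDN16-203, a transcript annotated as non-coding, while the protein-coding transcripts CLDN16-201 and CLDN16-202 start further on, at 190387872 and 190388120. A RefSeq promoter window of CLDN16 lies elsewhere, at 190290111 to 190290410, beyond the far end of CLDN1. A CLDN16 transcript from there would cross CLDN1 on the opposite strand, and whether reads were counted by strand is not given. The stretch shared by the pair is shown because these were the 2 claudins with the lowest levels in hairpin libraries relative to NC. It covers chr3:190322476-190322696 on the minus strand, 221 bases up to the base before the CLDN1 start, from the RefSeq promoter table (GRCh38.p14), and the capitals mark the 65 bases between the 2 starts. The lower-case bases overlap the start of CLDN16-203 on the opposite strand.

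CLDN1-CLDN16: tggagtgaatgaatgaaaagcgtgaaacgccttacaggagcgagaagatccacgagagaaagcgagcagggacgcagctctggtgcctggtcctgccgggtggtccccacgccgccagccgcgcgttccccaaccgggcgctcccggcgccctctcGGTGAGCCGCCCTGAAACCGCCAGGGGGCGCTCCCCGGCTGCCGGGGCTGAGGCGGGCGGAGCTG

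The stretch held 24 CG dinucleotides, 7 of them between the starts, and 69.7% of its bases were G or C. In the whole RefSeq window of CLDN1 (250 bases before its start to 50 after), 31 CG dinucleotides were counted, against a median of 14 over 35116 windows, and 20.7% of all windows held at least as many. The windows of CLDN7 (30 in 1 of its 2 windows) and CLDN3 (24) were also rich in CG, while CLDN4 had 5 and the 2 windows of CLDN16 had 2 and 5. RefSeq windows were matched for 9 of the 10 genes. Among motifs searched on both strands, CAGGTG, an E-box read by ZEB and SNAI repressors, occurred 5 times in the CG-rich window of CLDN7, 1 time in that of CLDN3 and in 1 of the 2 of CLDN16, and not in those of the other 6 genes matched. It occurred in 20.6% of all windows. AACCGGTT, a form of the site bound by grainyhead-like factors (0.134% of all windows), and TATAAA (11.5%) were in none of the claudin windows. A match is a description of letters, not a measured binding site.

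The libraries held between 17286934 and 19567192 estimated counts. The targeted gene, FMOD, had 2, 2 and 3 counts in NC and 0 in every hairpin library, so at this depth no fold change can be given for it. Pearson correlations of log2(CPM + 1) (CPM, the TMM-scaled count of a gene relative to the total of its library) were 0.993 to 0.994 among NC libraries but only 0.829 to 0.855 between NC and hairpin libraries. Libraries 1 and 2 of shRNA3 stood apart from the other hairpin libraries, with correlations of 0.904 to 0.929 to them, against 0.969 to 0.996 among the other 7, and the claudin differences that involve shRNA3 are also given without them. Whether NC and hairpin libraries came from the same line of cells was not tested. All 9 squamous markers (KRT5, KRT14, KRT6A, KRT17, TP63, CDH1, DSP, DSG3 and SFN) reached a mean of at least 1 CPM in every group. The 5 simple epithelial markers summed to 1430 to 1546 CPM in NC libraries and to 4411 to 7444 CPM in hairpin libraries. The 10 fibroblast markers summed to 83.3 to 92.9 CPM in NC and 379 to 902 CPM with hairpins, with FAP at 0 in all hairpin libraries. Of the 6 tested fibroblast markers VIM was the 1 called higher with each hairpin, while 5, 4 and 4 were called lower with shRNA1, shRNA2 and shRNA3, so the higher sum came mostly from VIM. Of all tested genes 30.6%, 28.4% and 27.6% were called lower in these comparisons, and 16% higher with every hairpin. The fibroblast markers COL1A2 and LUM passed the filter through NC libraries alone and so could come out only lower. The endothelial and leukocyte lists stayed at or below 23.3 CPM everywhere. The part of these shifts, and of the general distance between NC and hairpin libraries, in the claudin results was not tested.

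CLDN1 was the most abundant claudin per kilobase in NC and was at or near 0 in every hairpin library. The NC libraries held 9845, 10372 and 10266 CLDN1 counts, or 497, 510 and 520 CPM. The shRNA1 libraries held 0, 1 and 2 counts, and all 6 libraries of shRNA2 and shRNA3 held 0. The ratio of NC to shRNA1 was 10211-fold with an exact 95% counting interval of 3494 to 49518, and against a floor of 3 counts per library CLDN1 was at least 2992-fold lower with shRNA2 and at least 2590-fold lower with shRNA3. Intervals and floors cover counting error only. In bulk RNA, fewer cells that express a gene and less RNA per cell cannot be told apart.

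CLDN16, known for magnesium and calcium reabsorption in the kidney, was the other member of the chromosome 3 pair. Its NC libraries lay at 13.3, 11.7 and 13.6 CPM. With shRNA1 it lay at 0.895, 0.29 and 0.98 CPM, with shRNA2 at 0.409, 0.732 and 0.277, and with shRNA3 at 0.0741, 0.51 and 0.0496. Every hairpin library was below every NC library, although between 1 and 19 CLDN16 counts remained in each of them. The fitted log2 fold changes against NC were -4.15 (SE 0.59) for shRNA1, -4.75 (SE 0.62) for shRNA2 and -5.98 (SE 0.70) for shRNA3, with fold sizes of 17.7, 26.8 and 63. The residual was therefore a far larger share of the NC level than for CLDN1. With shRNA3 libraries 1 and 2 left out the fitted shRNA3 value was -7.81, which rests on a library with 1 CLDN16 count and so depends on the prior count of the fit.

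CLDN23, a claudin described in barrier-forming surface epithelium, lay at 26.8, 30 and 24.6 CPM in NC (chromosome 8, 8701938 to 8704106, plus strand). It was at 8.35, 7.36 and 6.19 CPM with shRNA1 and at 6.14, 6.42 and 6.2 CPM with shRNA2. The shRNA3 libraries spread more widely, at 2.37, 1.16 and 10.2 CPM. No hairpin library overlapped NC, and the 2 shRNA3 libraries that stood apart were the lowest of all 12. The log2 fold changes against NC were -1.89 (SE 0.56), -2.12 (SE 0.56) and -2.54 (SE 0.58), and the shRNA1 call was not kept without shRNA1 library 3 (adjusted p = 0.0502). The value for shRNA3 was -1.38 without its libraries 1 and 2, with the lone library assumed to vary like the other groups.

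CLDN7, a claudin that binds the adhesion protein EPCAM, was measured at 72.6, 62.2 and 60.1 CPM in NC (chromosome 17, 7259903 to 7263983, minus strand). It was at 12.8, 15.2 and 10 CPM with shRNA1, at 18.1, 18.1 and 17.7 CPM with shRNA2, and at 47.7, 52.1 and 26.2 CPM with shRNA3. All 9 hairpin libraries were below NC, with shRNA3 libraries 1 and 2 the closest to it. The log2 fold changes were -2.36 (SE 0.25), -1.85 (SE 0.25) and -0.63 (SE 0.24). The shRNA3 call, at an adjusted p of 0.0425, was not kept without the filter on low counts (0.0562), with only the groups compared (0.159), or without any of 8 single libraries (all of NC and shRNA2, shRNA1 library 1 and shRNA3 library 1). Without shRNA3 libraries 1 and 2 the value was -1.28. CLDN7 overlaps ELP5 on the opposite strand and AC003688.1 on its own, and whether reads were counted by strand is not given in the sources used here, so its level is uncertain by their reads.

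**Figure D1:**
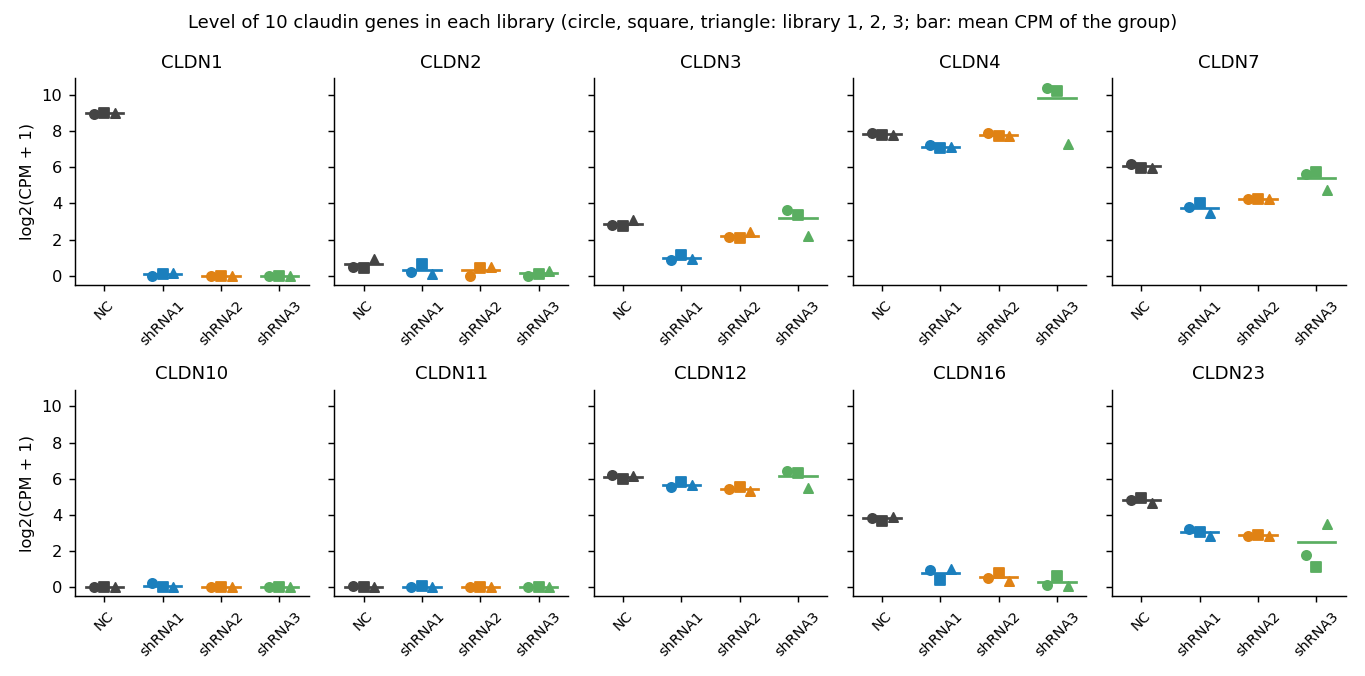
Level of each of the 10 claudin genes in each of the 12 libraries, as log2(CPM + 1) on the vertical axis, by group on the horizontal axis; circles, squares and triangles are libraries 1, 2 and 3 and bars the log2 of the group's mean CPM plus 1. CLDN1 falls from 497 to 520 CPM in NC to at most 0.103 CPM, while CLDN4 reaches 1349 and 1210 CPM in shRNA3 libraries 1 and 2 and 158 CPM in library 3.

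CLDN4 did not follow CLDN1. It and CLDN3 are receptors for the enterotoxin of Clostridium perfringens and lie 29272 bases apart on chromosome 7 (CLDN3 at 73768997 to 73770270 on the minus strand, CLDN4 at 73799542 to 73832693 on the plus strand). CLDN4 was at 241, 223 and 224 CPM in NC, at 150, 133 and 139 CPM with shRNA1 and at 234, 213 and 212 CPM with shRNA2. With shRNA3 it was at 1349, 1210 and 158 CPM, so that libraries 1 and 2 were above all others and library 3 was below NC. The log2 fold changes were -0.71 (SE 0.52) for shRNA1, -0.06 (SE 0.52) for shRNA2 and 1.98 (SE 0.54) for shRNA3. The shRNA3 value turned to -0.51 without its libraries 1 and 2, where the shRNA1 value of -0.69 passed the test and shRNA2 was at -0.05. The sign of the shRNA3 difference thus rested on which of its libraries were used.

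CLDN3 showed the same order of libraries within shRNA3, at a lower level. It was at 6, 5.81 and 7.35 CPM in NC, at 0.845, 1.21 and 0.928 CPM with shRNA1, and at 3.45, 3.27 and 4.26 CPM with shRNA2. With shRNA3 it was at 11.4, 9.39 and 3.57 CPM, again with libraries 1 and 2 above NC and library 3 below. Its log2 fold changes were -2.67 (SE 0.40), -0.80 (SE 0.37) and 0.34 (SE 0.36), and the shRNA3 value became -0.81 without libraries 1 and 2 and 0.70 without library 3. The shRNA2 value, -0.79 in both of these fits, then passed the test.

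CLDN12 lacks the usual scaffold-binding end and is linked to calcium permeability. In the fit of all 12 libraries it was called lower with shRNA2 and did not pass the test with shRNA1 or shRNA3. Its levels were 71.8, 61.3 and 69.7 CPM in NC, 44.7, 54.2 and 48.4 CPM with shRNA1, 41.3, 44.6 and 39.5 CPM with shRNA2 and 85.6, 79.1 and 44.3 CPM with shRNA3. The shRNA1 and shRNA2 libraries did not overlap NC, while shRNA3 lay on both sides of it. The log2 fold changes were -0.46 (SE 0.21), -0.69 (SE 0.21) and 0.04 (SE 0.21), and the shRNA3 value was -0.58 without libraries 1 and 2 and 0.28 without library 3. The shRNA2 call was not kept without NC library 1, shRNA2 library 1 or shRNA2 library 3, with adjusted p-values of 0.0538, 0.0517 and 0.0711. The shRNA1 value passed with only the groups compared (-0.46, adjusted p = 0.00608) and with a filter at a mean of 50 counts (-0.55, 0.0452). Without shRNA3 library 3 the shRNA1 value (-0.45, 0.000945) and the shRNA3 value of 0.28 (0.0351) passed as well. CLDN12 (chromosome 7, 90383721 to 90513402, plus strand) overlaps GTPBP10 and CDK14 on its own strand, so reads of these genes may be counted with it or lost from it.

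The remaining 3 members were close to the limit of detection. CLDN2, a channel for cations and water, had 8, 7 and 17 counts in NC, 3, 12 and 1 with shRNA1, 0, 6 and 7 with shRNA2 and 0, 1 and 4 with shRNA3. Its NC counts overlapped those of shRNA1 and shRNA2 and were above all 3 of shRNA3. In the fit with no filter on low counts the CLDN2 difference for shRNA3 was -2.33 and did not pass (adjusted p = 0.117), while without shRNA3 library 3 CLDN2 passed the filter and was called lower (-3.64, adjusted p = 0.0373), a fitted value that rests on 1 count in the 2 remaining libraries and depends on the prior count of the fit. CLDN10, an ion channel claudin of kidney and glands, had 3 counts in shRNA1 library 1 and 0 in the other libraries, and CLDN11, the claudin of myelin and of Sertoli cells, had 1 count each in NC library 1 and shRNA1 library 2. A floor of 3 counts per library corresponds to 0.145 to 0.222 CPM, so no difference in CLDN10 or CLDN11 was detectable at this depth.

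Read as a family, 5 of the 7 tested members were called lower than NC and 0 higher with shRNA1 (edgeR's quasi-likelihood test, adjusted p under 0.05). Over all tested genes 30.6% were called lower and 26.8% higher in that comparison. With shRNA2, 5 members were called lower and 0 higher, against 28.4% and 24.6% of all tested genes, and with shRNA3 4 were called lower and 1 (CLDN4) higher, against 27.6% and 26.4%. The 3 comparisons share the NC libraries. For the mean of the 3 hairpins 5 members were called lower and 0 higher, against 32.2% and 27.9%. The median log2 fold change of the tested members was -2.36, -1.85 and -0.63, where that of all tested genes was -0.02, -0.05 and -0.03. CLDN1, CLDN16, CLDN23 and CLDN7 were the 4 members called lower with every hairpin, a pattern that 19.7% of all tested genes showed, and the same 4 were those whose 9 hairpin libraries all lay below NC (25.8% of all tested genes). CLDN1 passed the filter through NC libraries alone and so could come out only lower. These values chose the members, so nothing is read from the counts. Without shRNA3 libraries 1 and 2, the shRNA3 values of all 7 tested members were negative, each resting on 1 library. Without shRNA3 library 3 those of CLDN3, CLDN4 and CLDN12 were positive.

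**Figure D2:**
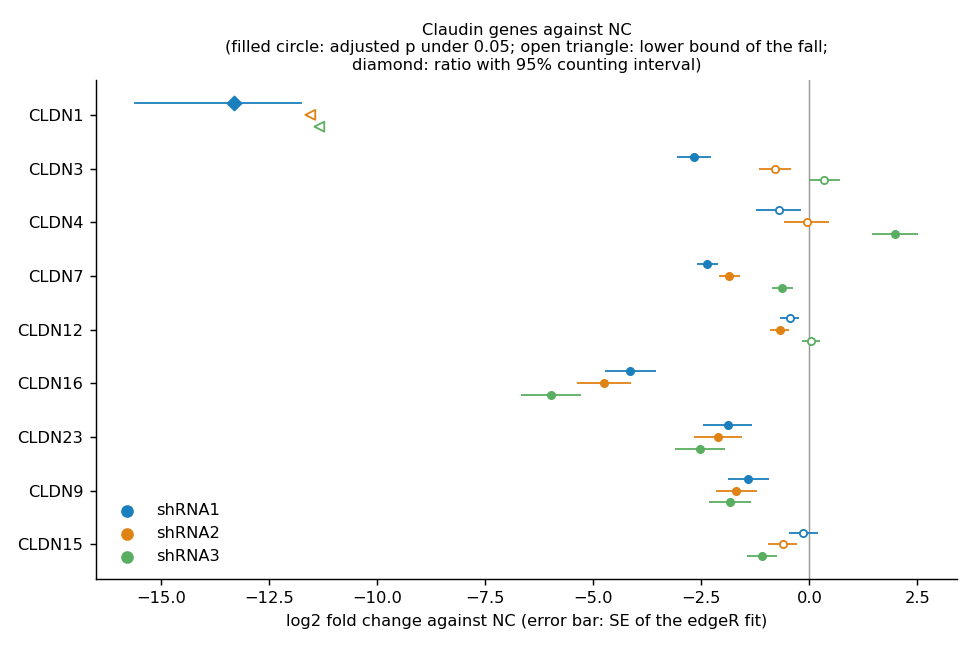
Log2 fold change against NC of the 9 claudin genes that passed the filter, 1 point for each hairpin with its SE; filled circles passed an adjusted p of 0.05, open triangles are lower bounds of the fall against a floor of 3 counts per library and the diamond is a ratio with its 95% counting interval. CLDN1 lies apart from all others, CLDN16 follows at -4.15 to -5.98, and CLDN4 ranges from -0.71 to 1.98.

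Per kilobase of merged exons, the order of the levels changed between groups. In NC it ran from CLDN1 at 139 ± 3.25 CPM per kb (SD, n = 3) through CLDN4 at 48.8 ± 2.15, CLDN7 at 26.1 ± 2.69, CLDN23 at 12.5 ± 1.26, CLDN12 at 10 ± 0.829 and CLDN3 at 5.01 ± 0.659 to CLDN16 at 3.59 ± 0.291, with CLDN2 at 0.157 ± 0.083. With shRNA1, CLDN4 led at 29.9 ± 1.84 CPM per kb, before CLDN12 at 7.28 ± 0.704, CLDN7 at 5.08 ± 1.04 and CLDN23 at 3.36 ± 0.499. With shRNA2 CLDN4 again led at 46.7 ± 2.59 CPM per kb, before CLDN7 at 7.2 ± 0.105 and CLDN12 at 6.2 ± 0.383, and CLDN23 and CLDN3, at 2.88 ± 0.068 and 2.87 ± 0.415, did not differ beyond their spread. With shRNA3 the spread of CLDN4, at 193 ± 139 CPM per kb, reflected its 2 levels among libraries, and CLDN7 at 16.9 ± 5.57 and CLDN12 at 10.3 ± 3.3 were not separated beyond theirs.

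CLDN4 thus took the leading place that CLDN1 held in NC. Of the summed level per kilobase of the 10 genes, CLDN1 made up 56.7% ± 1.66 (SD, n = 3) and CLDN4 19.9% ± 0.723 in NC. CLDN4 made up 64% ± 3.39 with shRNA1, 70.7% ± 1.42 with shRNA2 and 77.1% ± 16.8 with shRNA3, where it ranged from 57.7% to 87.3%. The share of CLDN7 lay at 10.6% in NC and means of 10.9% with shRNA1 and shRNA2 and 10.3% with shRNA3. In CPM the 10 genes summed to 918 ± 12.1 in NC, 212 ± 6.51 with shRNA1 and 290 ± 11.8 with shRNA2, and to 1496, 1353 and 243 in the 3 shRNA3 libraries. The height of shRNA3 libraries 1 and 2 over NC depended on the TMM scaling, with factors of 0.771 and 0.794 for them. As CPM of the raw total they were at 1154 and 1075, against 1004 to 1017 in NC. Without CLDN1 the NC sum was 409 ± 20.4 CPM, still above every shRNA1 and shRNA2 library, so CLDN1 was not the whole of the difference.

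**Figure D3:**
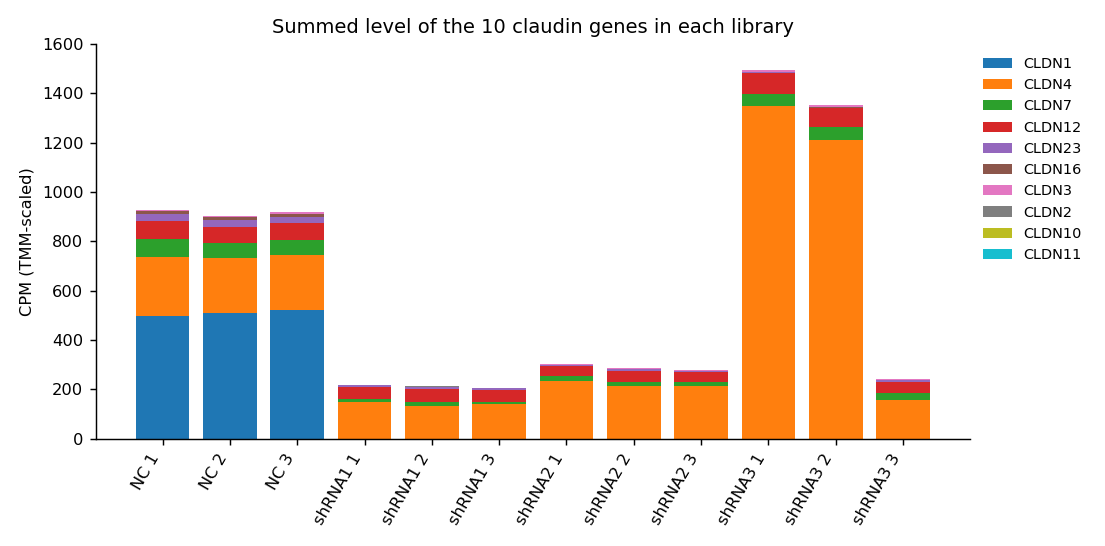
Stacked bars of TMM-scaled CPM of the 10 claudin genes in each library, from 0, with colours for genes. CLDN1 makes up at least 53.5% of each NC bar and none visible elsewhere, and CLDN4 makes up most of every hairpin bar, with totals of 1496 and 1353 CPM in shRNA3 libraries 1 and 2 against 205 to 303 CPM in the other hairpin libraries.

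Comparisons between hairpins ask whether 3 hairpins against the same gene gave the same claudin levels. NC, on which the choice of the genes mainly turned, is not part of these differences. Hairpin levels were also known at that choice, and NC libraries stayed in the fit that estimated the spread. The 7 tested members were compared in 3 pairs, with p-values adjusted over all 17532 genes in each. Between shRNA1 and shRNA2, 1 member (CLDN3) was called, lower with shRNA1, where 6.53% of all tested genes were called lower and 5.78% higher. The log2 difference of CLDN3 was -1.87 (SE 0.40, adjusted p = 0.0141), with all 3 shRNA1 libraries below all 3 of shRNA2. This call was not kept without shRNA1 library 1 (adjusted p = 0.0661) or shRNA2 library 3 (0.0591). CLDN7 and CLDN4 were also lower in each shRNA1 library than in each of shRNA2, by log2 differences of -0.50 and -0.64 that did not pass (adjusted p = 0.202 and 0.46). With only the libraries of this pair fitted CLDN4 at -0.66 and CLDN7 at -0.52 passed as well, and with shRNA3 libraries 1 and 2 or library 3 left out CLDN4 passed at -0.65 and CLDN7 at -0.51 and -0.50.

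Between shRNA1 and shRNA3, 3 members were called lower with shRNA1 (18.1% of all tested genes) and 0 higher (11.9%). They were CLDN3 at -3.02 (SE 0.41, adjusted p = 0.00248), CLDN4 at -2.69 (SE 0.55, adjusted p = 0.00861) and CLDN7 at -1.73 (SE 0.25, adjusted p = 0.0027). For each of these genes every shRNA1 library was below every shRNA3 library. With only the libraries of this pair fitted none passed, with adjusted p-values of 0.117, 0.121 and 0.117. Without shRNA3 libraries 1 and 2, CLDN3 at -1.85 and CLDN7 at -1.06 still passed (adjusted p = 0.00497 and 0.00574), while CLDN4 at -0.19 did not (0.355).

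Between shRNA2 and shRNA3, 2 members were called lower with shRNA2 (6.43% of all tested genes) and 0 higher (1.91%). CLDN4 differed by -2.04 (SE 0.54, adjusted p = 0.0455) with overlapping libraries, and CLDN7 by -1.22 (SE 0.24, adjusted p = 0.0272) without overlap. Neither call was kept when any single NC or shRNA2 library, or library 1 or 2 of shRNA3, was left out, with adjusted p-values of 0.0537 to 0.159, and the CLDN4 call was also lost without any single shRNA1 library. With shRNA3 libraries 1 and 2 left out the CLDN4 difference turned to 0.46 (adjusted p = 0.0805) and CLDN7 was at -0.56 (0.167).

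For the members that fell furthest against NC, no pair of hairpins passed the test. CLDN16 differed by 0.60 on the log2 scale between shRNA1 and shRNA2 (95% interval from the SE -0.63 to 1.83), by 1.83 between shRNA1 and shRNA3 (0.42 to 3.25, adjusted p = 0.0736) and by 1.23 between shRNA2 and shRNA3 (-0.25 to 2.71). CLDN23 differed by 0.22 (-0.86 to 1.30), 0.64 (-0.45 to 1.74) and 0.42 (-0.67 to 1.52). These intervals allow differences of more than 2-fold in either gene. Leaving out shRNA3 library 2 brought the CLDN16 difference between shRNA1 and shRNA3 to 3.42 (adjusted p = 0.0276). With shRNA3 libraries 1 and 2 left out together, CLDN16 was at 3.68 against shRNA1 (0.0501) and 3.08 against shRNA2 (0.192), and the CLDN23 differences turned to -0.50 and -0.72 (0.152 and 0.104). Leaving out shRNA3 library 3 brought CLDN23 to 2.06 against shRNA1 and 1.84 against shRNA2 (adjusted p = 5.67e-06 and 2.47e-05). CLDN12 was at -0.73 between shRNA2 and shRNA3 (adjusted p = 0.0533), and at -0.96 without shRNA3 library 3, where it passed (3.66e-06). Without shRNA3 libraries 1 and 2 it was at -0.09 (0.799).

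Of the other claudin genes in the table, 4 had at least 10 counts in any library. CLDN9, known from the inner ear and the neighbour of CLDN6 on chromosome 16, was at 6.61, 5.95 and 6.94 CPM in NC and between 0.741 and 3.15 CPM in the 9 hairpin libraries, with no overlap. Its log2 fold changes were -1.41 (SE 0.47), -1.69 (SE 0.47) and -1.84 (SE 0.48), all called. The shRNA1 call was not kept without NC library 1, NC library 3 or shRNA1 library 3 (adjusted p = 0.0543, 0.0592 and 0.0804), and the shRNA3 call not without shRNA3 libraries 1 and 2 (-1.03, adjusted p = 0.0577). CLDN15, a cation channel of the gut, was called lower with shRNA3, at -1.10 (SE 0.35, adjusted p = 0.0194), and was at -0.14 and -0.62 with shRNA1 and shRNA2. That call was not kept without NC library 3 or shRNA3 library 2 (adjusted p = 0.0564 and 0.0721), and the value was -0.71 without shRNA3 libraries 1 and 2 (0.107). The differences between hairpins in CLDN15 did not pass edgeR's test in the fit of all 12 libraries, while CLDN15 was called higher with shRNA1 than with shRNA3 by the DESeq2 Wald test (0.94, adjusted p = 0.0318) and with a filter at a mean of 50 counts (0.93, adjusted p = 0.0493). CLDN6, of embryonic epithelia, had at most 20 counts and CLDN5, of endothelial junctions, at most 18, each in a single library, and neither passed the filter.

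The levels beside CLDN1 on chromosome 3 were described because its nearest neighbour CLDN16 was also low. Of the 5 genes on each side, 4 passed the filter. P3H2, a collagen prolyl hydroxylase whose start lies 200 kb from that of CLDN1, was at 109, 108 and 114 CPM in NC, at 8.65, 9.97 and 26.3 CPM with shRNA1, at 9.42, 10.9 and 9.3 CPM with shRNA2 and at 3.26, 4 and 3.72 CPM with shRNA3. It fell with every hairpin, with log2 fold changes of -2.88 (SE 0.35) for shRNA1, -3.48 (SE 0.37) for shRNA2 and -4.91 (SE 0.40) for shRNA3, at adjusted p-values of 4.47e-05, 1.46e-05 and 2.46e-06. P3H2-AS1, which overlaps the start of P3H2 on the opposite strand, was at 0.541 to 0.862 CPM in NC and at most 0.117 CPM with hairpins, and its reads cannot be told apart from those of P3H2 without strand.

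On the other side, IL1RAP, a co-receptor of the interleukin-1 family, starts 192 kb away. It was at 84.5, 68.7 and 75.6 CPM in NC, 49.9, 57.4 and 58.2 CPM with shRNA1, 16.1, 21 and 18.3 CPM with shRNA2 and 56, 56.7 and 21.2 CPM with shRNA3. Its log2 fold changes were -0.47 (SE 0.29, adjusted p = 0.194), -2.04 (SE 0.31, adjusted p = 0.000195) and -0.77 (SE 0.30, adjusted p = 0.044), and the last of these was lost when any NC, shRNA1 or shRNA2 library was left out. The shRNA1 value of IL1RAP passed with only the groups compared (-0.47, adjusted p = 0.00607) and without shRNA3 library 3 (-0.46, 0.00188). TMEM207, between CLDN16 and IL1RAP, had no reads in any group, and the 5 pseudogenes and small RNA genes of the window had means of at most 0.05 CPM. Of the 4 tested neighbours, 3 were called lower with every hairpin, a pattern of 19.7% of all tested genes. All 4 had every hairpin library below NC, as did 25.8% of all tested genes. P3H2-AS1 passed the filter through NC libraries alone and so could come out only lower. Levels were not equal along the window, and whether they depended on position was not tested.

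**Figure D4:**
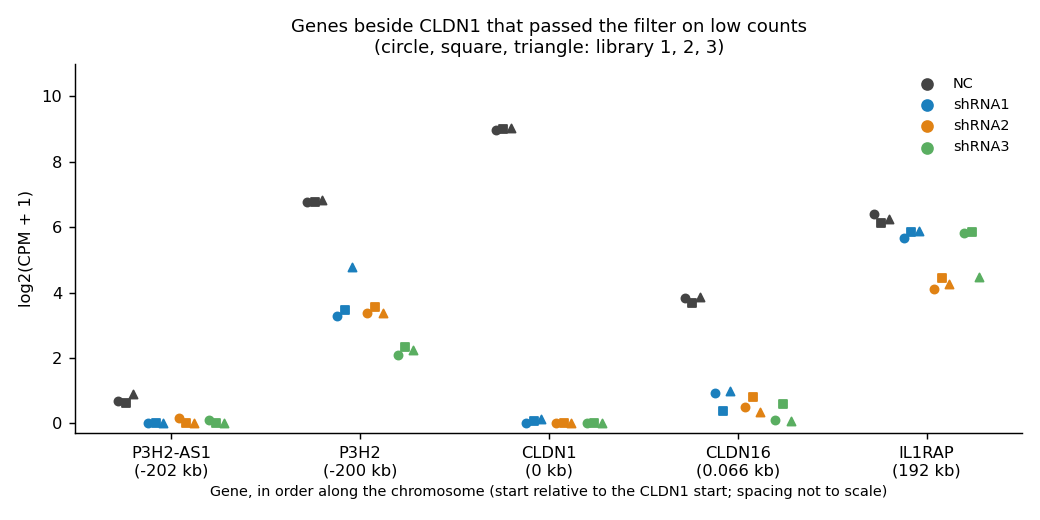
Level of CLDN1 and of the 4 neighbours that passed the filter, as log2(CPM + 1), in the order of their starts on chromosome 3, with colours for groups and a symbol for each library. The 9 hairpin libraries lie below NC for each gene, as for 25.8% of all tested genes, and by most for CLDN1.

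Among the 11 other membrane proteins of tight junctions, 9 passed the filter. With shRNA1 7 of the 9 were called lower and 1 higher, with shRNA2 6 and 1, and with shRNA3 6 and 1, at median log2 fold changes of -1.29, -0.90 and -1.18. Of all tested genes 30.6%, 28.4% and 27.6% were called lower and 26.8%, 24.6% and 26.4% higher with shRNA1, shRNA2 and shRNA3, at medians of -0.02, -0.05 and -0.03. These comparisons share NC with those of the claudins, and the lists were written with earlier results of these data known. ILDR1, ILDR2 and CRB3 passed the filter through NC libraries alone and so could come out only lower. Nothing is read from the counts of this list. OCLN, the gene of occludin, was the member that rose. It was at 22.1, 20.9 and 20.5 CPM in NC and between 27.2 and 72 CPM with hairpins, without overlap. The log2 fold changes were 0.62 (SE 0.21, adjusted p = 0.0225), 0.79 (SE 0.21, adjusted p = 0.0069) and 1.51 (SE 0.21, adjusted p = 0.000114). The shRNA1 call for OCLN was not kept without NC library 2, NC library 3 or shRNA1 library 2 (adjusted p = 0.0615, 0.0669 and 0.0864).

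The angulins, which hold the tricellular corners, were all lower. LSR was at 257, 262 and 260 CPM in NC and between 79.2 and 123 CPM with hairpins, with log2 fold changes of -1.36, -1.32 and -1.18 (SE 0.15 each). ILDR2 was at 16.8, 16.8 and 14.2 CPM in NC and at 0 counts in all 9 hairpin libraries, which made it at least 107-fold lower than in NC with shRNA1, 93.8-fold with shRNA2 and 81.2-fold with shRNA3. ILDR1 had 135 to 137 counts in NC and at most 3 in a hairpin library. CRB3, of the apical polarity complex, was at 41.3 to 47.8 CPM in NC and at most 0.338 CPM with hairpins (log2 fold changes -8.12, -8.11 and -7.62). CXADR, a junctional adhesion molecule and virus receptor, fell by less, with log2 fold changes of -0.63, -0.90 and -0.59. F11R, a junctional adhesion molecule too, fell with shRNA1 (-1.04, SE 0.33, adjusted p = 0.0184), a call lost without NC library 1 or shRNA1 library 3 (0.0502 and 0.0673). It was at -0.55 with shRNA2 and at 0.39 with shRNA3, where libraries 1 and 2 were at 408 and 382 CPM and library 3 at 125 CPM. Without those libraries its shRNA3 value was -0.86.

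Of 21 plaque proteins, which link claudins to the cytoskeleton, 20 passed the filter. With shRNA1 12 were called lower and 0 higher, with shRNA2 10 and 2, and with shRNA3 11 and 2, at medians of -0.96, -0.72 and -0.88, beside 30.6%, 28.4% and 27.6% lower and 26.8%, 24.6% and 26.4% higher of all tested genes. CGNL1 and MAGI2 passed the filter through NC libraries alone and so could come out only lower. Nothing is read from the counts of this list. CGN, the gene of cingulin, was at 49.7, 46.4 and 42.4 CPM in NC and fell with each hairpin, with log2 fold changes of -2.99, -3.45 and -1.49. Its paralogue CGNL1 had 67 to 81 counts in NC and at most 6 in a hairpin library, and the scaffold MAGI2 had 31 to 52 counts in NC, 1, 2 and 6 with shRNA1 and 0 with shRNA2 and shRNA3. AMOTL2, of the angiomotin family, was at 423 to 446 CPM in NC and fell, with log2 fold changes of -1.5, -3.63 and -1.11. Its shRNA3 call was lost without any single NC library or shRNA2 library 3 (adjusted p = 0.0503 to 0.0631). SYMPK, the gene of symplekin, a protein of the junction plaque and of RNA processing, was at 89.7, 90.5 and 75.5 CPM in NC and was called higher with shRNA2 (0.36, adjusted p = 0.0466), with shRNA1 at 0.26 and shRNA3 at 0.21. That call was not kept with DESeq2's size factors or test, with either other filter, with a replicate block (adjusted p = 0.0707), or without any of 7 single libraries (all of NC and shRNA2 and shRNA1 library 2). AMOTL1 and YBX3, a plaque-associated transcription factor, were called only with shRNA3, at 0.90 and 0.48. When shRNA3 libraries 1 and 2 were left out those values were 0.12 and 0.17 and did not pass.

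EPCAM binds CLDN7 and CLDN1 and protects them from degradation, and the protease ST14 and its inhibitors SPINT1 and SPINT2 act on EPCAM. Of the 5 genes of this list, all tested, 3 were called lower and 0 higher with shRNA1, 2 and 1 with shRNA2, and 1 and 2 with shRNA3. With shares of 27.6% to 30.6% lower and 24.6% to 26.8% higher over all tested genes, nothing is read from counts among 5 genes. SPINT1 fell with each hairpin, with log2 fold changes of -3.29, -2.95 and -1.94. ST14 fell with shRNA1 (-1.51, adjusted p = 0.000239) and was at -0.47 and 0.29 with shRNA2 and shRNA3, the last at -0.32 without shRNA3 libraries 1 and 2. SPINT2, the other inhibitor, was at -0.27 and -0.08 and was called higher with shRNA3 (0.91, adjusted p = 0.0123), where libraries 1 and 2 were at 1867 and 1807 CPM and library 3, at 772 CPM, was below NC. EPCAM itself was at 185, 182 and 195 CPM in NC and was at -0.26 with shRNA1, which did not pass (adjusted p = 0.244) but did without shRNA3 library 3 or without shRNA3 libraries 1 and 2 (-0.25 in both, adjusted p = 0.0247 and 0.0392). It was higher with shRNA2 (0.53, adjusted p = 0.03) and shRNA3 (0.92, adjusted p = 0.00143), although the shRNA2 call was not kept without any single NC or shRNA2 library.

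Transcription factors of epithelial junction genes were called in both directions. Of 16 genes, all tested, 3 were called lower and 6 higher with shRNA1, 4 and 4 with shRNA2, and 3 and 11 with shRNA3, beside 30.6%, 28.4% and 27.6% lower and 26.8%, 24.6% and 26.4% higher of all tested genes. GRHL2 passed the filter through NC libraries alone and GRHL3 through hairpin libraries alone, which fixed their directions. ZEB1, with 12, 8 and 9 counts in NC, and ZEB2, with 14, 10 and 13, also passed only through hairpin libraries. Both could therefore hardly come out lower. GRHL2, an activator of CLDN4 and of cadherin genes, was at 36.6, 34.4 and 35.7 CPM in NC and at most 0.843 CPM in a hairpin library. Its log2 fold changes were -8.63 (SE 0.97), -8.00 (SE 0.93) and -6.73 (SE 0.85). CLDN4 in the same hairpin libraries lay between 133 and 1349 CPM, and a relation between these genes was not tested. OVOL1, a repressor of mesenchymal genes, fell with log2 fold changes of -5.81, -2.93 and -3.08. ZEB1 and ZEB2, repressors of epithelial junction genes, rose from at most 0.706 CPM in NC to between 1.93 and 9.05 CPM, with log2 fold changes of 3.98, 3.15 and 2.49 for ZEB1 and 3.69, 2.58 and 2.52 for ZEB2. GRHL3 rose by 2.54, 3.47 and 4.84 from at most 0.304 CPM, and KLF5, abundant in all groups, by 2.0, 2.03 and 2.24. TP63, the squamous lineage factor, fell with shRNA2 (-0.99) and shRNA3 (-1.03) and was at -0.30 with shRNA1. Its shRNA3 value was -0.38 without shRNA3 libraries 1 and 2. ELF3 and TFAP2A were called only with shRNA3 (1.86 and 0.62), and without its libraries 1 and 2 they were at 0.47 and -0.04. The TFAP2A call was also lost without any single NC library, or without shRNA3 library 1 or 2 (adjusted p = 0.0557 to 0.104).

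**Figure D5:**
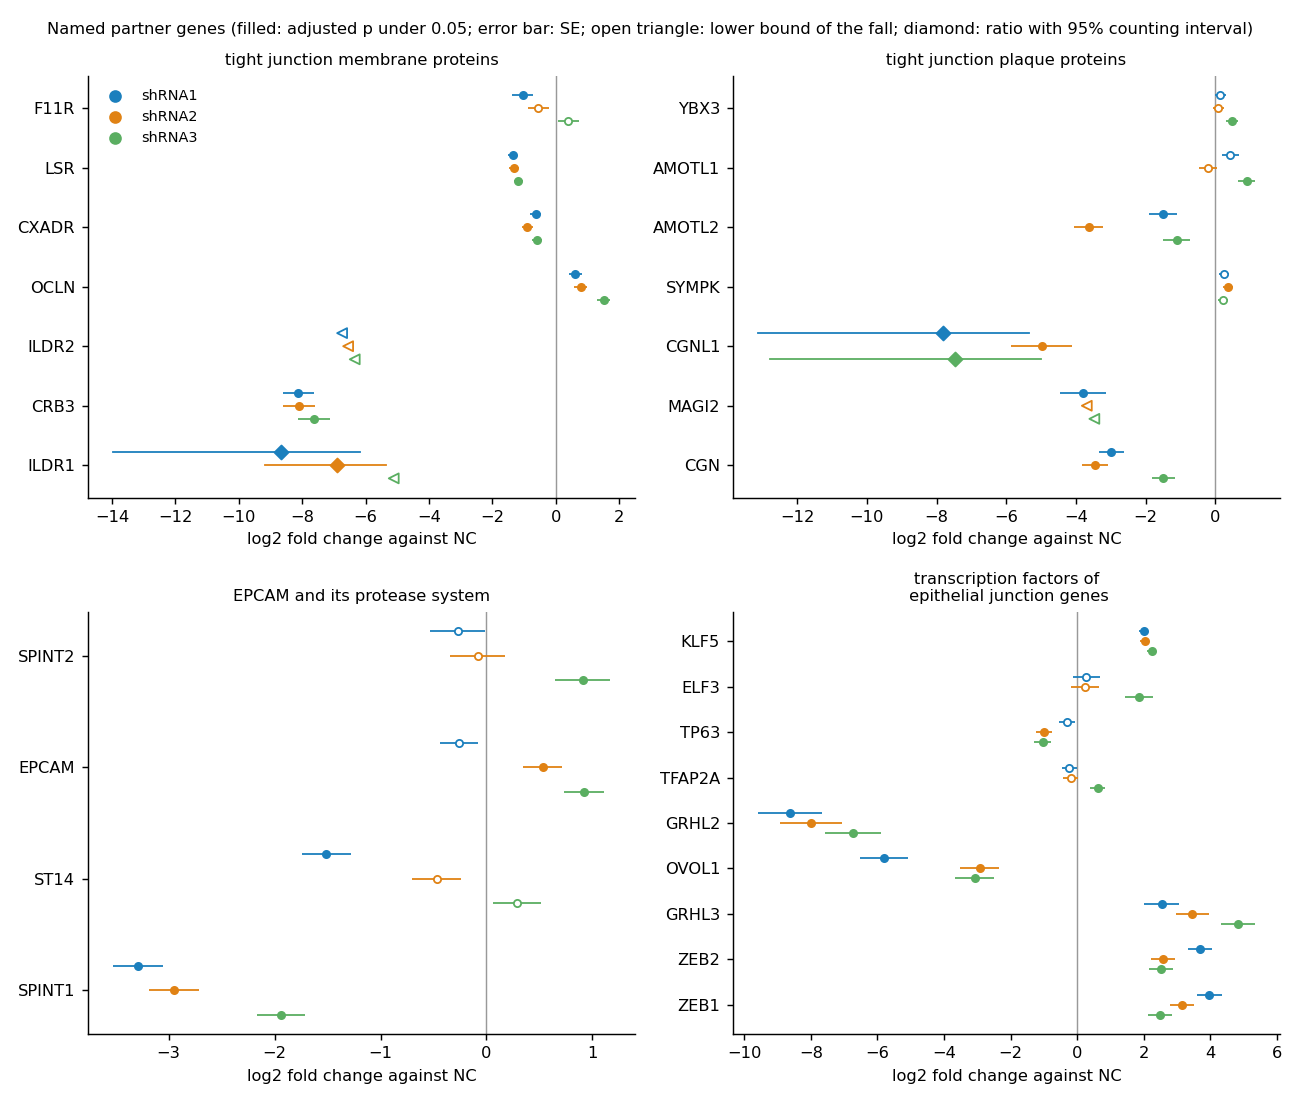
Log2 fold change against NC of the named genes of the 4 partner lists, 1 point for each hairpin with its SE; filled circles passed an adjusted p of 0.05, open triangles are lower bounds and diamonds are ratios with 95% counting intervals. CRB3, ILDR1, ILDR2, CGNL1 and GRHL2 lie furthest to the left, and OCLN, KLF5, GRHL3, ZEB1 and ZEB2 to the right.

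The pattern of CLDN1 across libraries was shared by many genes. Over the 12 libraries, the Pearson correlation of log2(CPM + 1) with CLDN1 was at least 0.99 for 593 tested genes with a symbol, and the closest were GLUL, C1orf115, PAX6, SLFN11 and HLA-DPB1, each at 0.9999 or above. GLUL averaged 176 CPM in NC and reached at most 0.103 CPM in a hairpin library, and the other 4 were at 0 in all hairpin libraries. Such a correlation describes 2 levels, 1 in NC and 1 in all hairpin libraries, and 12 libraries in 4 groups are not 12 independent points. Of the claudins, CLDN16 came closest to CLDN1 at 0.98, followed by CLDN23 at 0.83, CLDN7 at 0.73, CLDN12 at 0.45, CLDN3 at 0.38 and CLDN4 at -0.10.

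CLDN4 was most like STN1 (0.9964), EMD, CDKN2D, MINK1 and IDH3G, all high in the same shRNA3 libraries, and among claudins most like CLDN3 (0.78), its neighbour on chromosome 7. CLDN7 was most like SEZ6L2 (0.9934), CXCL16, PLD3, MMUT and HHLA3, and among claudins most like CLDN3 (0.86) and CLDN12 (0.80). Only 7 tested genes reached 0.99 with CLDN4 and 3 with CLDN7, so their patterns were shared by fewer genes than that of CLDN1.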

How the data were processed

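RNA of 12 libraries was sequenced. The values are estimated counts of reads per gene, deposited by the authors without scaling between libraries, and 13.8% of them are not whole. The submitters' processing notes list HISAT2, HTSeq 0.11.2 and GRCh38. The annotation release, any filter and the use of strand are not given in the sources used here. Groups came from the sample titles, and 0 columns matched no sample. Counts were rounded, and 380 IDs are not Ensembl IDs. Positions came from GENCODE release 29, matched to 95.7% of IDs.

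Counts were scaled by TMM and filtered with filterByExpr (minimum count 10, minimum total 15). Tests were two-sided, with edgeR's quasi-likelihood method (edgeR 4.0.16, R 4.3.3, robust) in 1 model of the 4 groups (8 residual degrees of freedom, common biological coefficient of variation 0.289), with Benjamini-Hochberg adjustment over 17532 genes and a threshold of 0.05. The standard error is that of the fit. Bounds used a floor of 3 counts per library. The script was tested on simulated counts. CPM per kb used merged exon lengths. Alternatives included DESeq2 1.42.0, a replicate block and libraries left out.

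The members and lists were chosen with earlier results of these data known, and the members' differences from NC are a description. Beside all members, the text names other claudins with at least 10 counts in a library, the 5 genes on each side of CLDN1, and the 5 genes most correlated with CLDN1, CLDN4 and CLDN7. Some genes are not reported here and were left out of the partner lists. Of each list the text names the 4 with the highest mean CPM and up to 3 per direction called with every hairpin.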

Additional observations from a re-analysis of the deposited data

Results flagged for a closer look

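Differences between hairpins aimed at the same gene drew attention for 3 claudins, on the log2 scale, with edgeR's test of the difference itself. CLDN3 was lower with shRNA1 than with shRNA2 by -1.87 and than with shRNA3 by -3.02. CLDN4 was lower with shRNA1 than with shRNA3 (-2.69) and with shRNA2 than with shRNA3 (-2.04). CLDN7 was lower with shRNA1 than with shRNA3 (-1.73) and with shRNA2 than with shRNA3 (-1.22). Each difference that involves shRNA3 includes its libraries 1 and 2, and the values without them stand in the results above.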

How the results depend on the processing

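Of the 7 tested claudins, 4 were called lower and 1 higher with shRNA3, against 27.6% and 26.4% of all tested genes. With shRNA3 libraries 1 and 2 left out together the shRNA3 values of all 7 were negative. Values of single genes that turned under this setting were, with shRNA3 against NC, CLDN3 at -0.81, CLDN4 at -0.51, CLDN12 at -0.58, F11R at -0.86, ST14 at -0.32, TFAP2A at -0.04 and SPINT2 at -0.004, and CLDN4 at -0.42 for the mean of the hairpins. Between shRNA1 and shRNA3 they were CLDN12 at 0.13, CLDN23 at -0.50 and CLDN9 at -0.37, and between shRNA2 and shRNA3 CLDN3 at 0.02, CLDN4 at 0.46, CLDN23 at -0.72 and CLDN9 at -0.65. The lone shRNA3 library was then assumed to vary like the other groups. The plaque genes called higher with every hairpin became 1, the EPCAM list's genes called lower 2 and the transcription factors called lower 4.

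With only the groups compared, 0 members were called higher with shRNA3, 3 lower between shRNA1 and shRNA2 (3 also without shRNA3 libraries 1 and 2), and 0 in the other 2 hairpin pairs. At an adjusted p under 0.01, 2 members were lower with every hairpin, 0 between shRNA1 and shRNA2, 0 between shRNA2 and shRNA3, and 0 membrane genes were higher (0 also with a log2 change of at least 1). Between shRNA2 and shRNA3 the 2 lower members became 1 without the filter, 0 without shRNA3 libraries 1 and 2 and 4 with the DESeq2 Wald test, which also called 1 member higher between shRNA1 and shRNA3. With a mean of at least 50 counts, 1 transcription factor was lower with every hairpin and CLDN12 with shRNA3 was at -0.02. The share of all tested genes called is not given for any alternative setting, so nothing is read from the counts under them. The cause was not tested.

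Replicate numbers did not pair the libraries (mean correlation of deviations -0.0107 over 18 same-numbered pairs, and 1 of 12 libraries correlated best with its own number). With a replicate block, 1 member was called between shRNA2 and shRNA3 (CLDN4 lost its call, at an adjusted p of 0.073), SYMPK lost its call with shRNA2, and no other call or count named here moved by over 1.5 times.

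With 1 library left out, members called lower ranged from 0 to 3 between shRNA1 and shRNA2 and from 0 to 4 between shRNA2 and shRNA3. Members called higher ranged from 1 to 3 with shRNA3 and from 0 to 1 for the mean of the hairpins and for shRNA1 or shRNA2 against shRNA3. Membrane genes and plaque genes called higher with every hairpin ranged from 0 to 1. Uncalled values that turned ranged from -0.07 to 0.28 for CLDN12 with shRNA3, from -0.28 to 0.07 for CLDN15 with shRNA1, and between shRNA2 and shRNA3 from -0.05 to 1.84 for CLDN23 and from -0.23 to 0.88 for CLDN9.

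As CPM of the raw total, claudin levels summed to means of 1013 in NC, 220 with shRNA1 and 291 with shRNA2. The 3 shRNA3 libraries were then at 1154, 1075 and 258. Per kilobase the sums were 245, 46.7, 66 and 228 CPM per kb in NC, shRNA1, shRNA2 and shRNA3. Of the alternative values of single genes, 2819 kept their direction and side of the threshold, 111 lost and 72 gained a call, and 23 turned. Depth limits CLDN10 and CLDN11, where no difference was detectable.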

Other observations

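Among the cell type markers, those given here were chosen after their values were seen. Of the 9 squamous markers, KRT5 and CDH1 fell with each hairpin, KRT14, KRT6A, KRT17 and DSP rose with each, and the other 3 were not called in 1 direction with all 3. Of all tested genes 19.7% were called lower and 16% higher with all 3 hairpins, so nothing is read from counts of markers. KRT5, a keratin of basal squamous cells, went from 964 to 1048 CPM down to at most 90.2 CPM, while KRT14, its usual partner, went from at most 9.58 CPM in NC to between 24.2 and 230 CPM. CDH1, the classical cadherin of epithelial adherens junctions, was at 335, 322 and 310 CPM in NC and between 35.3 and 79.3 CPM in hairpin libraries, with log2 fold changes of -3.08, -2.59 and -2.29 (SE 0.19 to 0.20).

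Of the 5 simple epithelial markers, KRT8, KRT18, KRT19 and KRT7 rose with each hairpin, a pattern of 16% of all tested genes. KRT19 went from at most 1.01 CPM up to 246 CPM or more, and KRT7 from at most 16.4 CPM to between 728 and 2249 CPM. VIM, an intermediate filament gene of mesenchymal cells, lay at 3.04 to 3.43 CPM in NC and at 355 to 817 CPM with hairpins. Other genes of the same list fell with each hairpin. CDH2, a mesenchymal cadherin, went from between 23.4 and 29.6 CPM to between 2.69 and 17.9 CPM, PDGFRB, a growth factor receptor, from at least 9.35 CPM to at most 1.29 CPM, and COL1A2, a collagen gene, from at least 4.51 CPM to at most 0.206 CPM. PECAM1, an endothelial adhesion gene, rose from at most 0.197 CPM to between 2.09 and 9.68 CPM, while CDH5 and VWF of that list fell. PECAM1 passed the filter through hairpin libraries alone, and COL1A2 and VWF through NC libraries alone, which left little room for the other direction.

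PRSS8, a membrane protease of the EPCAM list, was also chosen after its values were seen. Like CLDN4 it was higher in shRNA3 libraries 1 and 2 than in the other hairpin libraries. Unlike CLDN4 it lay near its NC level in those libraries. It was at 186, 176 and 181 CPM in NC, between 2.99 and 11.2 CPM with shRNA1 and shRNA2, and at 161, 177 and 10.4 CPM with shRNA3.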
